A study of Mus musculus with 2 samples.

Results

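Polycomb group proteins keep genes silent by marking the chromatin around them. Here 9 genes of this system were examined in mouse mammary tumour cells with and without a conditional Zeb1 knockout. They were chosen by name: Ezh1, Ezh2, Eed and Suz12 of Polycomb repressive complex 2 (PRC2), Bmi1, Cbx2 and Cbx7 of Polycomb repressive complex 1 (PRC1), and the demethylases Kdm6a and Kdm6b. All 9 were listed in both libraries, among 16902 genes listed in at least 1. RNA came from EpCAM-positive epithelial cells of mammary tumours that the polyoma middle T oncogene (PyMT) drives, or of such tumours with a conditional Zeb1 knockout (PyMT;Zeb1cKO). All the tumours therefore carry the oncogene. The study asked how tumour-cell Zeb1, a repressor of epithelial genes, shapes M2-like tumour-associated macrophages. The sources used here do not give the Cre driver, the deleted part of Zeb1, the strain and age of the mice, or whether a library pools tumours.

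PRC2 places methyl groups on lysine 27 of histone H3 (H3K27) through the catalytic subunit Ezh2 or its paralog Ezh1, which work only when joined to Eed and Suz12. Canonical PRC1 reads the trimethylated mark through a Cbx chromodomain protein, and its ring finger subunits, among them Bmi1, help to ubiquitinate histone H2A and compact chromatin. Kdm6a (also called Utx) and Kdm6b (Jmjd3) remove the mark. In many tissues Ezh2 is high in dividing cells and Ezh1 persists in resting ones, and in the mouse mammary gland Ezh2 and Bmi1 are known for their part in progenitor cell growth.

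Each genotype had 1 library, of 21580274 estimated counts for PyMT and 21277484 for PyMT;Zeb1cKO. There is no replicate and no test, so every difference is between these libraries and cannot be told apart from the animal, tumour or batch. Levels are FPKM (fragments per kilobase of gene, scaled to library depth), intervals are 95% intervals that cover counting error only, and a count ratio is the share of the library's counts in the knockout over that in PyMT. Zeb1 had 96 counts in PyMT and 38 in the knockout, with a count ratio of 0.401 (0.268 to 0.59). Its level was low in both libraries, 0.79 and 0.32 FPKM. All 10 epithelial markers were listed in both libraries, with Krt18 at 1836 and 712.4 FPKM, and their summed level was 6985 and 3317 FPKM. In the knockout library 9 of the 10 were lower and 1 higher. On the log2(FPKM + 1) scale 4 were at least 2-fold lower, against 8.78% of all genes that reached an FPKM of 1 in either library. Markers of other cells were present as well: the summed FPKM in the PyMT and knockout libraries was 640.8 and 670.8 for 8 fibroblast genes, 477.6 and 392.5 for 8 macrophage genes, 64.27 and 43.51 for 7 endothelial genes, and 90.89 and 95.09 for 6 pan-leukocyte genes. It was 554.4 and 98.47 for 7 neutrophil genes, of which Ngp and Camp were not listed in the knockout library. For 8 lymphocyte genes, of which Ms4a1 was listed in neither, it was 2.45 and 2.15. Ltf alone gave 281.2 and 81.2 FPKM of the neutrophil sums and S100a8 225.8 and 14.99, so such a sum mostly follows its most abundant genes. Csf3r (1.32 and 1.17 FPKM) and Cxcr2 (0.32 and 0.08) of the same list were low in both libraries. Which cells the Ltf and S100a8 transcripts came from was not tested, so these sums do not measure neutrophil content. Of the 7 macrophage genes that reached an FPKM of 1 in either library, 4 were higher in the knockout library and 3 lower, although their sum was lower. Over all 12653 such genes, 7337 were higher and 5303 lower. The part of these other cells in the results below was not tested. In such bulk libraries, fewer cells of a type and less RNA per cell cannot be told apart.

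The members whose promoters held one of the motifs searched are shown first, because Ezh2 and Suz12 are the members that were more than 2-fold higher in the knockout library and Ezh1 is the paralog of Ezh2 that was lower. The sequences are RefSeq promoters (GRCm38.p6), from 250 bases before the start site to 50 after it, found for 7 of the 9 genes; Cbx2 and Kdm6b had no entry. Capitals in Ezh2 (chr6:47594981-47595280, minus strand) and Suz12 (chr11:79992856-79993155, plus strand) mark an E2F-type motif, the site class of the cell cycle factors E2F. Capitals in Ezh1 (chr11:101226414-101226713, minus strand) mark the E-box CACCTG, the kind of site that Zeb1 binds.
Ezh2: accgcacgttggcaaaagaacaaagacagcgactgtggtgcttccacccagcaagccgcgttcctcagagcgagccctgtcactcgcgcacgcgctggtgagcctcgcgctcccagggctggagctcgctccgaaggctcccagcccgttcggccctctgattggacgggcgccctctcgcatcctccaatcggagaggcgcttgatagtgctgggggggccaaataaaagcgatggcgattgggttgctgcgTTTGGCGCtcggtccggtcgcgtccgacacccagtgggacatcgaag
Suz12: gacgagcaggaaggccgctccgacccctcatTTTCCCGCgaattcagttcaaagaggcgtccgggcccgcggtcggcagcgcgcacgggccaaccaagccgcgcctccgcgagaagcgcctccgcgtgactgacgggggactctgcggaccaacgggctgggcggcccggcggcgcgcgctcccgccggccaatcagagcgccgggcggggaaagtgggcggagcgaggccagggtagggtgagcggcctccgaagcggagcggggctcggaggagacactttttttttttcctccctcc
Ezh1: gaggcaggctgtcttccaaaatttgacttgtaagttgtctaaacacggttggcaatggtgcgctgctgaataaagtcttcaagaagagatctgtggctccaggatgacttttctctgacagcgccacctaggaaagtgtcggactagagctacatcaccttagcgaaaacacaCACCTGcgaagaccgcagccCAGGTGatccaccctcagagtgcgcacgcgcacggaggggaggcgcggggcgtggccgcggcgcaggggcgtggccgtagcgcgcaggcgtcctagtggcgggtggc

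The E2F-type letters searched were TTTCGCGC, TTTGGCGC, TTTCCCGC and TTTGCCGC on both strands. They occurred in 2 of the 7 promoters, those of Ezh2 and Suz12, and in 2.26% of all 32851 promoters of this length. The match in Ezh2 begins at base 4 after the RefSeq start, and that in Suz12 begins 219 bases before the start. Only 1 RefSeq start per gene was searched, so the matches and positions hold for that start alone. The searched promoters of Ezh2 and Cbx7 lie wholly inside the gene spans given below, which begin further upstream. CACCTG, read as CAGGTG on the other strand, occurred in 1 of the 7 promoters, that of Ezh1, at 77 and 57 bases before the start, and in 20.2% of all promoters. The motifs were chosen with the expression values known, and the GC content of these 7 promoters, 54.7% to 71.0%, lay above the mean of all promoters, 53.8%. A match is a run of letters and not evidence of binding.

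Among the PRC2 core genes, Ezh2 and Suz12 were higher in the knockout library, Ezh1 was lower, and Eed was nearly level. Ezh2 (chr6:47530139-47595341, GRCm38), the main PRC2 methyltransferase of dividing cells, had 497 counts and 9.31 FPKM in the PyMT library against 1583 counts and 29.88 FPKM in the knockout library. Its count ratio was 3.23 (2.92 to 3.58), and its log2 ratio of FPKM + 1, the measure used for counting genes, was 1.58. That is the highest ratio of the 9, above 96.7% of the 12653 genes compared (those that reached an FPKM of 1 in either library). Suz12 (chr11:79993106-80034123), the scaffold that holds the complex together, went from 674 counts and 7.33 FPKM to 1720 counts and 18.95 FPKM. Its count ratio was 2.59 (2.37 to 2.83), with a log2 ratio of 1.26.

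Ezh1 (chr11:101191115-101226463), the paralog with weaker methyltransferase activity, had 1124 counts in PyMT and 772 in the knockout, or 12.90 and 8.88 FPKM. Its count ratio of 0.697 (0.635 to 0.764) lay within 2-fold. Eed (chr7:89954654-89980983), the subunit that binds trimethylated H3K27 and stimulates the enzyme, had 666 and 696 counts, or 16.80 and 17.51 FPKM. The counting interval of its ratio, 1.06 (0.952 to 1.18), includes equality, and the sign of its log2 ratio depended on the scaling: it was 0.06 as deposited and lay between -0.09 and 0.08 over the alternatives tried.

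The order of the paralogs differed between the libraries. Per length, Ezh1 was the more abundant in the PyMT library and Ezh2 in the knockout library: Ezh2 made up 41.9% of the summed Ezh1 and Ezh2 FPKM in the former and 77.1% in the latter. The ratio of Ezh2 to Ezh1 was 4.64 times as large in the knockout library (4.04 to 5.33), a comparison within each library that the scaling between libraries does not touch. The summed FPKM of both was 22.21 and 38.76. Suz12 relative to Eed was 2.44 times as large (2.12 to 2.81), from 0.436 to 1.08 in FPKM, while Ezh2 relative to Suz12 differed less, by 1.25 times (1.09 to 1.43). These pairs were chosen with the values known.

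**Figure D1:**
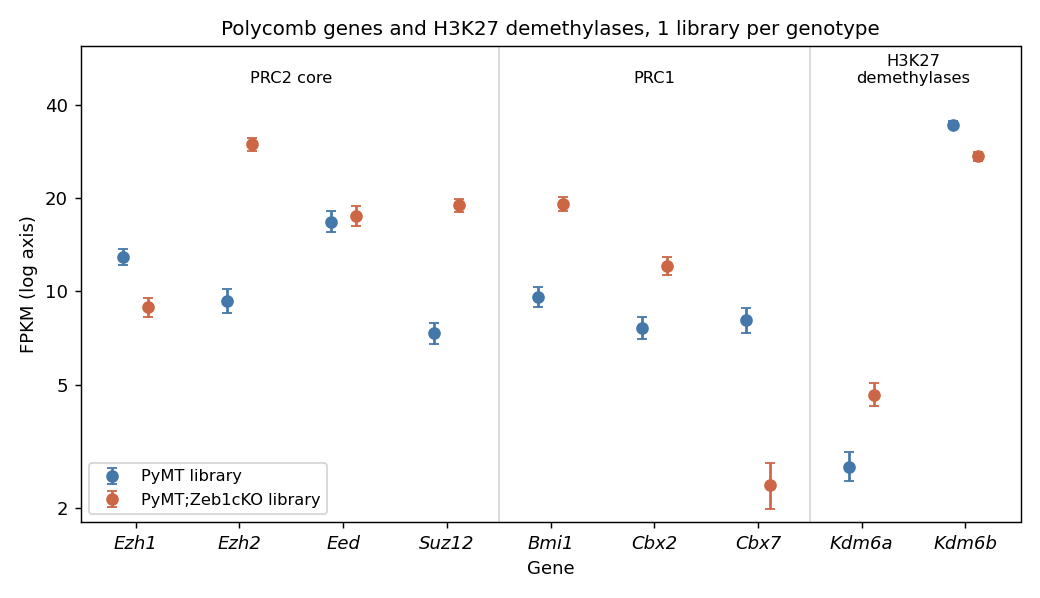
FPKM of the 9 genes (log axis) in the PyMT library (blue) and the PyMT;Zeb1cKO library (orange), grouped by complex; bars are 95% counting intervals, with 1 library per genotype. Ezh2 goes from 9.31 to 29.88 and Cbx7 from 8.07 to 2.37, while the intervals of Eed overlap.

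In PRC1, Cbx7 was lower in the knockout library while Bmi1 and Cbx2 were higher. Cbx7 (chr15:79915807-79971119), a chromodomain reader of trimethylated H3K27 that also represses the Cdkn2a locus, had 471 counts and 8.07 FPKM in the PyMT library. It had 137 counts and 2.37 FPKM in the knockout library. The count ratio was 0.295 (0.242 to 0.358) and the log2 ratio -1.43, the lowest of the 9 and above only 4.38% of the genes compared. In the annotation Cbx7 shares 100 exonic bases with Apobec3, on the opposite strand, which was at 59.59 and 33.34 FPKM. Opposite-strand transcripts that the tables do not list under their annotated symbols share 174 exonic bases with Ezh2, 178 with Suz12, 261 with Eed and 286 with Kdm6b. The sources used here do not say whether counting used strand, so reads in these stretches are uncertain for all 5 genes.

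Bmi1 (chr2:18677018-18686629), the ring finger subunit also called Pcgf4, which represses the Cdkn2a locus, had 706 counts and 9.61 FPKM in PyMT against 1393 counts and 19.14 FPKM in the knockout. Its count ratio of 2.00 (1.83 to 2.19) sits on the 2-fold line, and its log2 ratio of FPKM + 1 was 0.92, just inside it. Cbx2 (chr11:119022962-119031270), a chromodomain subunit that compacts nucleosomes, had 590 and 924 counts, or 7.64 and 12.08 FPKM, with a count ratio of 1.59 (1.43 to 1.76). Within each library, Cbx2 and Cbx7 were nearly equal in PyMT and far apart in the knockout: the FPKM of Cbx2 was 0.947 times that of Cbx7 in the former and 5.10 times in the latter.

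The members were also set among their paralogs, a view chosen after the values were seen. It restates the same FPKM values as shares and is no separate evidence. Among the 5 Polycomb Cbx genes, Cbx7 made up 7.87% of the summed FPKM in PyMT and 3.65% in the knockout, and Cbx2 7.45% and 18.6%. Cbx6 was the most abundant of them in both, at 49.1% and 33.0%. The sum over the 5 genes was lower in the knockout library, 64.9 against 102.6 FPKM. Among the 6 Pcgf genes the sum was nearly level, 69.84 and 71.0 FPKM, but Bmi1 went from 13.8% to 26.96% of it. This was not particular to Bmi1: Pcgf6 went from 6.56% to 17.5% and Pcgf3 from 10.5% to 14.1%. The remaining Pcgf genes had smaller shares in the knockout library. Pcgf2 (Mel18), the closest paralog of Bmi1, was at 29.44 and 18.40 FPKM, so the ratio of Bmi1 to Pcgf2 was 3.26 times as large in the knockout library (2.88 to 3.69).

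**Figure D2:**
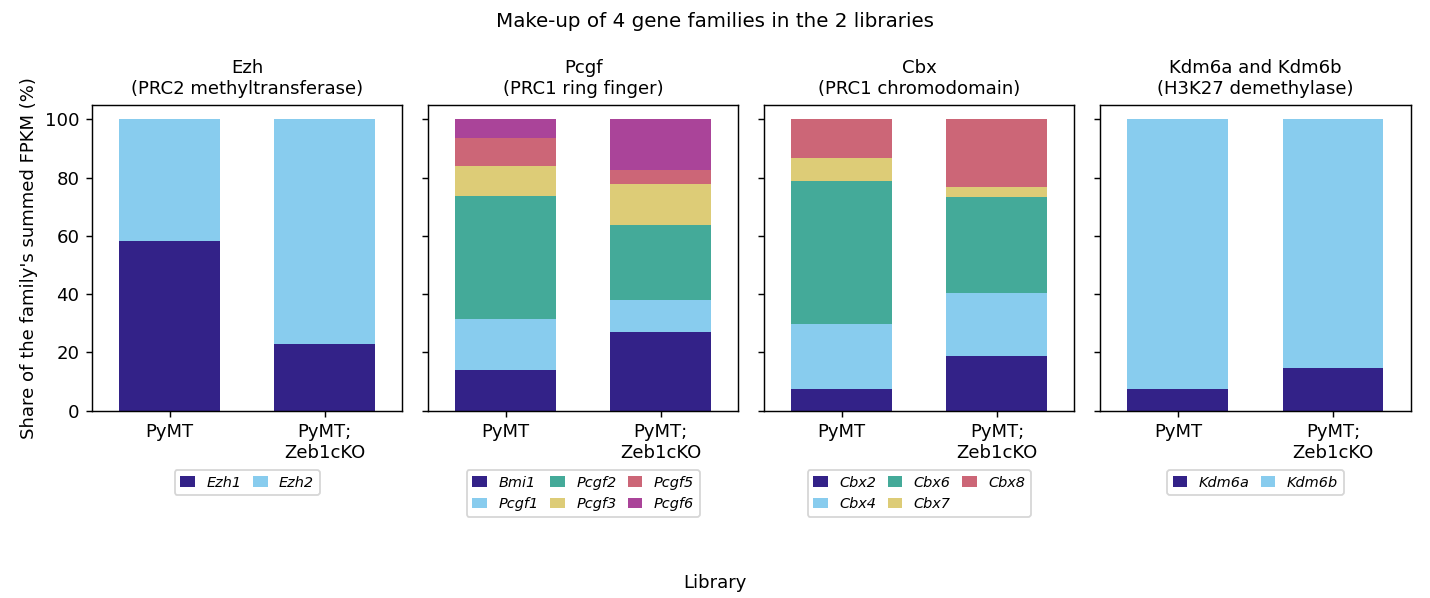
Share of each family's summed FPKM (percent, per length) held by each gene in the PyMT and PyMT;Zeb1cKO libraries, for the Ezh, Pcgf and Polycomb Cbx genes and for Kdm6a with Kdm6b; 1 library per genotype, no error bars. Ezh2 takes 41.9% and 77.1% of the Ezh sum. Of the Pcgf sum, Bmi1 takes 13.8% and 26.96%, and Pcgf6 6.56% and 17.5%.

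The H3K27 demethylase genes Kdm6a and Kdm6b both lay within 2-fold and differed in opposite directions. Kdm6b (chr11:69398508-69413675), which is induced by stress and inflammatory signals, had 4875 estimated counts in PyMT against 3818 in the knockout, or 34.54 and 27.27 FPKM. Its count ratio was 0.794 (0.761 to 0.829). Kdm6b is the only one of the 9 with non-whole counts, meaning that some reads were split with another gene model, so its ratio is uncertain beyond the interval. Kdm6a (chrX:18162575-18279936), which also works within MLL3 and MLL4 complexes, was the lowest of the 9 in the PyMT library, with 336 counts and 2.72 FPKM. With the knockout it had 568 counts and 4.65 FPKM, and its count ratio was 1.71 (1.5 to 1.97). Kdm6b outnumbered Kdm6a per length in both libraries, 12.7 times in PyMT and 5.86 times in the knockout. The summed FPKM of Kdm6a and Kdm6b was 1.68 times that of Ezh1 and Ezh2 in PyMT and 0.824 times in the knockout. This is a description of transcripts and not of enzyme activity or of the mark.

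The order of the 9 levels differed between the libraries. In the PyMT library Kdm6b was highest, followed by Eed and Ezh1; then came Bmi1, Ezh2, Cbx7, Cbx2 and Suz12, each with a counting interval that overlaps its neighbour's, and Kdm6a was lowest. In the knockout library Ezh2 was highest, above Kdm6b, followed by Bmi1, Suz12 and Eed, whose neighbouring intervals overlap, and then by Cbx2, Ezh1, Kdm6a and Cbx7. The genes closest to Ezh2 in log2(FPKM + 1) over both libraries were Krt79 (9.2 and 30.56 FPKM) and Lurap1 (10.03 and 31.05), and those closest to Cbx7 were Apln (8.11 and 2.2) and Fam110c (8.25 and 2.55). Such likeness rests on 2 libraries alone.

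On the log2(FPKM + 1) scale, 2 of the 9 were at least 2-fold higher in the knockout library, against 10.2% of all genes compared. One, Cbx7, was at least 2-fold lower, against 8.78% of all genes. The other 6 lay within 2-fold. The median log2 ratio of the 9 was 0.60, and that of all genes 0.13. With 9 genes, these counts are a description and set nothing apart from the background.

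The remaining subunits of both complexes mostly lay within 2-fold, as did 10251 of the 12653 genes compared. Of 8 other PRC2 subunits, all compared, none was past 2-fold, with a median log2 ratio of 0.39. Of all genes compared, 10.2% were at least 2-fold higher and 8.78% lower, and with 8 genes this count sets nothing apart from that. The highest was Mtf2, a Polycomb-like subunit that brings PRC2 to unmethylated CpG-rich DNA, with 366 and 756 counts, 3.95 and 8.40 FPKM and a log2 ratio of 0.92. Without the pseudocount it passed 2-fold, with a count ratio of 2.1 (1.85 to 2.38), as did Phf19, another Polycomb-like subunit of low level that was named after its values were seen (24 and 82 counts). Phf19 reached an FPKM of 1 in the knockout library alone (0.31 and 1.08 FPKM), so the filter fixed its direction. The histone-binding subunit Rbbp7 was at 62.14 and 100.1 FPKM. The lowest were Phf1, also Polycomb-like (26.17 and 18.17 FPKM), and Aebp2 (8.87 and 7.67). Mtf2 and Phf1 were named as extremes of this list, so their opposite directions follow from that choice and are no result about paralogs.

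Of 22 other PRC1 subunits, 21 were compared, 1 was 2-fold higher and 1 lower, with a median of 0.08. The shares over all genes compared were 10.2% higher and 8.78% lower, and counts this small set nothing apart from them. Pcgf6, a ring finger of variant PRC1, was the higher one, at 4.58 and 12.40 FPKM with a count ratio of 2.73 (2.31 to 3.23). L3mbtl2, its partner in a variant complex, was at 7.05 and 12.80 FPKM, with a count ratio of 1.82 (1.63 to 2.04). Cbx6 was the lower one, at 50.34 and 21.42 FPKM with a count ratio of 0.427 (0.407 to 0.448). Pcgf5, a ring finger of another variant PRC1, was at 6.55 and 3.32 FPKM.

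**Figure D3:**
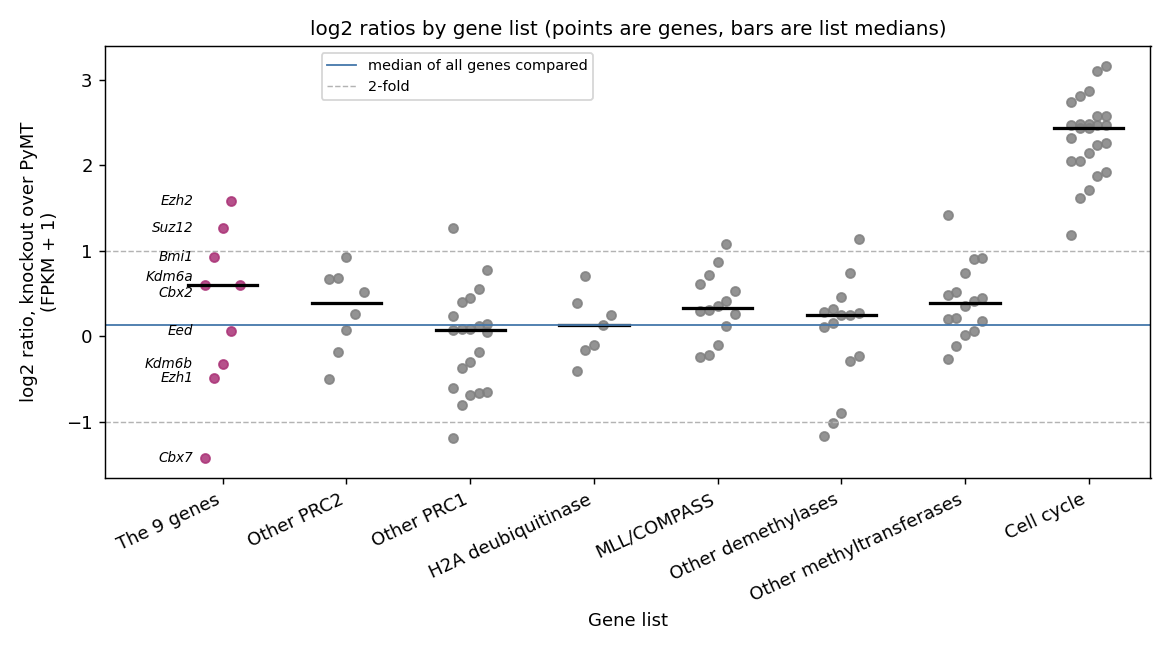
log2 ratio of FPKM + 1, knockout over PyMT, for each compared gene (points) in 8 lists, with list medians (black bars), the median of all genes compared (blue line, 0.13) and 2-fold (dashed lines); 1 library per genotype. The 9 genes spread from -1.43 to 1.58, and all 25 cell cycle genes lie above 2-fold, against 10.2% of all genes compared. Of these 25, Bub1 reached an FPKM of 1 in the knockout library alone.

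Enzyme families that work beside or against Polycomb are given next, to be read against the shares of all genes above (10.2% higher, 8.78% lower) and their median log2 ratio of 0.13. Of 7 compared genes of the H2A deubiquitinase complex, which removes the PRC1 mark, none was past 2-fold, and the median was 0.13. Its highest members were Ogt (12.13 and 20.32 FPKM) and Hcfc1 (14.43 and 19.18), and its lowest Foxk1 (8.84 and 6.40) and Asxl1 (13.61 and 12.01). Of 14 MLL/COMPASS genes, which include partners of Kdm6a, 1 was 2-fold higher, with a median of 0.33 and 11 genes above 0. It was Pagr1a, at 15.90 and 34.60 FPKM; Men1 followed at 22.60 and 42.17, and Setd1a (17.71 and 14.81) and Ncoa6 (6.40 and 5.36) were lowest. Of 15 other histone lysine demethylases, 1 was higher and 2 lower, with a median of 0.25. Kdm1b, a demethylase of H3K4, was at 2.03 and 5.64 FPKM with non-whole counts, and Kdm2a at 15.21 and 26.11. The H3K9 demethylases Kdm3a (18.94 and 7.88) and Kdm4b (31.93 and 15.22), both known as hypoxia-induced genes, were the lower ones. Kdm7a (3.97 and 1.66 FPKM), which was picked with its values known, passed 2-fold without the pseudocount, with a count ratio of 0.422 (0.369 to 0.48).

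Of 16 other histone H3 and H4 lysine methyltransferases, 1 was 2-fold higher and none lower, with a median of 0.38. It was the H3K9 enzyme Suv39h2, with 18 and 192 counts and a count ratio of 10.8 (6.66 to 18.6), though its FPKM was only 0.2 and 2.2. The H4 enzyme Kmt5a, listed under the symbol Setd8, was at 34.03 and 64.81 FPKM, and Dot1l (7.80 and 7.13) and Setdb2 (1.11 and 0.76, non-whole counts) were lowest. Suv39h2 and Setdb2 each reached an FPKM of 1 in 1 library alone. The filter therefore fixed their directions, and no count is read from them.

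Cell cycle and immediate-early genes also differed between the same 2 libraries in which the 9 members were compared. Every one of the 25 cell cycle genes was at least 2-fold higher with the knockout, against 10.2% of all genes compared. Their median log2 ratio was 2.44. They ran from E2f1 (4.28 and 10.97 FPKM, log2 ratio 1.18), which encodes an activator of S-phase genes, to Ccna2 (4.43 and 47.71 FPKM, 3.17). Bub1 of this list (0.34 and 3.11 FPKM) reached an FPKM of 1 in the knockout library alone, so the filter fixed its direction. The log2 ratio of Ezh2, 1.58, lay below the list's median and above its lowest member. Immediate-early genes were lower, 10 of 14 of them past 2-fold against 8.78% of all genes compared. Their median log2 ratio was -1.59, and they ran from Dusp1 (101.8 and 10.36 FPKM) to Egr2 (2.5 and 1.78). Both lists were chosen with earlier results of these data known. The part of either group in the Polycomb values was not tested.

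Known Polycomb targets were listed as well. At the locus that Bmi1 and Cbx7 repress in mouse fibroblasts, Cdkn2a, which encodes p16 and p19 cell cycle brakes, had 376 and 421 counts. Its FPKM was 23.87 and 26.32, and its count ratio of 1.14 (0.986 to 1.31) has an interval that includes equality. The neighbouring brake Cdkn2b was lower in the knockout library, at 12.55 and 5.24 FPKM with a count ratio of 0.423 (0.344 to 0.518). Of 39 Hox genes, the classic Polycomb targets, 31 were listed in at least 1 library and 8 passed the filter. Each of the 8 reached an FPKM of 1 in 1 library alone, so the filter fixed its direction and no count is read from them. Hoxb2 went from 12 to 1090 counts (0.39 and 35.15 FPKM) and Hoxb5 from 6 to 637 (0.16 and 17.22), while Hoxd9 (44 and 13 counts) and Hoxd8 (55 and 27 counts) were lower within 2-fold on the log2(FPKM + 1) scale. Members of the Hoxa and Hoxc clusters stayed below an FPKM of 1 in both libraries.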

How the data were processed

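RNA-seq of 2 mouse libraries was used, 1 per genotype. The authors' deposited tables give an expected count and an FPKM value per gene, per the file headers, with gene lengths. The submitters' processing notes name build mm10 and, with no role for any, RSEM 1.2.8, HISAT2 2.1.0, DESeq and Bowtie2 2.2.5; the sources used here do not give the annotation. Genes absent from a table entered at 0.

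The log2 ratio is log2 of (FPKM + 1) in the knockout over PyMT, for genes that reach an FPKM of 1 in either library; the pseudocount understates the difference of low genes. Count ratios use estimated counts rounded to whole numbers, with exact Clopper-Pearson 95% intervals. Intervals of FPKM are exact Poisson intervals of the count, and those of a change in a pair's ratio are exact conditional odds ratio intervals. All cover counting error only, since reads without molecular identifiers are not independent molecules. The depth was 21580274 and 21277484 estimated counts.

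The members, the 18 gene lists (226 entries, 217 found, 6 of them by gene identifier under an older symbol) and the tests were chosen with earlier results of these data known. Named genes are the 9 members, Zeb1, and up to 2 highest and 2 lowest of each Polycomb or histone list. They also include the extremes of the cell cycle and immediate-early lists, the highest marker of each cell type, and the 2 nearest genes of each member. Not all are reported. Genes named outside the rule (Apobec3, Pcgf2, Pcgf3, Phf19, Kdm7a, Bub1, Ngp, Camp, S100a8, Csf3r, Cxcr2, Ms4a1) were chosen after their values were seen. Gene coordinates are from GENCODE M21 (GRCm38), matched by symbol. Alternatives were a pseudocount of 0.1, scaling by the median ratio, TPM, CPM with TMM factors, a count ratio without pseudocount, other filters and other fold thresholds. The steps were tested on simulated data. Python 3.11.15, numpy 2.4.6, pandas 2.3.3, scipy 1.17.1, matplotlib 3.10.9, R 4.3.3 and edgeR 4.0.16 (TMM factors only) were used.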

Additional observations from a re-analysis of the deposited data

How the results depend on the processing

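No paired analysis was possible because each genotype has 1 library. Under the pseudocount and scaling alternatives, Ezh2 and Suz12 stayed at least 2-fold higher and Cbx7 at least 2-fold lower. The log2 ratios of Ezh2, Suz12 and Cbx7 ranged from 1.44 to 1.69, 1.12 to 1.37 and -1.76 to -1.43. Without a pseudocount Bmi1 also passed, which made 3 higher. At 1.5-fold, 5 of the 9 were higher, 2 other PRC1 subunits were higher and 6 lower, and 3 other PRC2 subunits were higher, against 23.7% higher and 17.3% lower of all genes. At 3-fold on the log2(FPKM + 1) scale, 0 of the 9 and 0 other PRC1 subunits were past it in either direction, against 3.27% and 3.53% of all genes; the count ratios of Ezh2 (3.23) and Cbx7 (0.295) are past 3-fold. The number of other PRC2 subunits at least 2-fold higher was 2 with a pseudocount of 0.1, 2 without a pseudocount and 1 with TMM factors, against 0 as reported; the shares of all genes were 14.7%, 15.2%, 9.89% and 10.2%. Of the 2 without a pseudocount, 1 was Phf19, whose direction the filter fixed. The median log2 ratio of the members was 0.33 with an FPKM of at least 5, which leaves out Kdm6a, and 0.46 to 0.67 otherwise. Of 62 alternative log2 ratios of single members, 53 stayed within the counting interval and 9 moved beyond it. A filter cannot change the ratio of a single gene, so the filter entries among the 53 were fixed in advance. Over all genes, scaling by the median ratio took the median log2 ratio from 0.13 to -0.00044, and of the genes past 2-fold 53.7% were higher as deposited, 41.9% after that scaling and 45.7% with TMM factors. The depth gave the members 137 to 4875 counts per library, and no alternative stands in for replicates.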
